A study of Mus musculus with 2 samples.

Results

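The genes described here are 32 genes of the response to low oxygen and of glycolysis, read in 2 droplet single-cell RNA libraries of injured mouse kidney. They are the members of a list of known targets of the hypoxia-inducible factors (HIFs) and of glycolysis genes that are present in both count tables, 32 of 32285 features. They fall into 15 HIF targets, 2 transporters of glucose and lactate, 13 glycolysis enzymes and 2 regulators of glycolysis. Aldoa has 2 gene identifiers in the tables, and its counts were added. The members were listed by name and not by their values.

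Both libraries came from kidneys taken 14 days after clamping of 1 renal artery and reperfusion, with 4 tamoxifen injections given after the injury. The control library came from Cre- mice. The other, called haplodeficient here, came from mice of the genotype Cdh5-CreERT2; Phd3f/+, which carry 1 floxed allele of Phd3 (the gene Egln3) and a Cre that tamoxifen activates and that the promoter of Cdh5, the cadherin of endothelial junctions, drives in endothelium. Whether the control mice carried the floxed allele, and how many mice went into a library, was not given in the sources used here. Each library is replicate 1 of its group, and with 1 library in each group a difference between them has no replicate check, so no test was run. Cells of 1 library are not replicates of its condition.

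HIFs are transcription factors whose alpha subunits are hydroxylated by the prolyl hydroxylases PHD1, PHD2 and PHD3 when oxygen is plentiful, and are then degraded. When oxygen is low they bind short elements in promoters and raise genes of glucose uptake, glycolysis, lactate export, mitochondrial quality control and matrix synthesis. In the kidney, the proximal tubule lives mainly on oxidation of fatty acids and makes glucose, while distal segments and leukocytes use glycolysis more.

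The libraries held 106926054 UMIs in 8737 cells (control) and 93610831 UMIs in 9222 cells (haplodeficient), with medians of 8762 and 5472 UMIs per cell. UMIs are unique molecular identifiers, each marking 1 captured transcript by its 3′ end, so they need no scaling by transcript length. Mitochondrial genes took a median of 10.2% and 2.69% of a cell's UMIs, and proximal tubule-like cells made up 29.6% and 2.29% of cells, so the libraries differ in makeup and in quality measures. They shared 23 cell barcodes. Cells were clustered without the members, and 34 of 40 clusters were named from fixed marker lists. Levels are given for 16 cell classes with at least 50 cells in both libraries and differences for the 13 with at least 100. UMIs were summed per class and library and are given as CPM, counts scaled to the same total in each class and library. Intervals in parentheses are exact 95% intervals and cover counting error only. Egln3, the gene whose floxed allele defines the haplodeficient mice, stood at 23.9 CPM in control and 21.0 CPM in haplodeficient endothelial-like cells, but counts of 3′ ends do not show whether a floxed exon was removed.

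Promoter sequences were matched for 28 of the 32 members in RefSeq (GRCm38.p6), and Bnip3l, Ndrg1, Bhlhe40 and Ndufa4l2 were not matched. The core of a hypoxia response element, which HIFs bind, is ACGTG, with the variant GCGTG. In the 250 bases before a start site, on either strand, at least 1 of these motifs stood in 25 of the 28 genes (89.3%), against 41.5% of 27025 genes in the table. The first motif alone stood in 57.1% of the members and in 18.5% of all genes. It overlaps the E-box CACGTG, which other factors bind and which stood in 14.3% of the members and 6.86% of all genes. A match is a description of the letters and does not show binding. Printed here are stretches of 120 bases from within those 250 for some members named in the results, read 5′ to 3′ on the gene's strand. Capitals mark both motifs and their reverse complements. Pfkfb3 and Slc2a1 are shown because they lay lower in the haplodeficient library in nearly all classes, and Gapdh and Ldha because they lay higher. Ddit4 is shown because its level was highest in endothelial-like cells, and Slc16a3 because its level was highest in neutrophil-like cells. Bnip3 is shown because it was high in several tubule classes.
Pfkfb3, first start: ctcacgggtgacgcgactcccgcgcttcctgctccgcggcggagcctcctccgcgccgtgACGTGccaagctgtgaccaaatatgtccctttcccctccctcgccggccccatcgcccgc
Pfkfb3, second start: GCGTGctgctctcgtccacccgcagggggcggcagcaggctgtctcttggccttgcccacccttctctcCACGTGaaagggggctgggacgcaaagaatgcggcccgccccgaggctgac
Slc2a1: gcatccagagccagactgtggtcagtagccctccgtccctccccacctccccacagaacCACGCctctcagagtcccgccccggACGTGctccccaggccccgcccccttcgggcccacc
Gapdh: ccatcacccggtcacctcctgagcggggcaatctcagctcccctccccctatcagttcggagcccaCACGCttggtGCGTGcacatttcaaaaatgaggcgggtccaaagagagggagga
Ldha, first start: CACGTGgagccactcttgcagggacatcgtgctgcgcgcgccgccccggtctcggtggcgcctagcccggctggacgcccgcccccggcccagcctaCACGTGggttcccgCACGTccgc
Ldha, second start: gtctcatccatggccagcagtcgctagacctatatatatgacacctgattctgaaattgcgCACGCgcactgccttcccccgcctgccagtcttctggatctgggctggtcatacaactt
Ddit4: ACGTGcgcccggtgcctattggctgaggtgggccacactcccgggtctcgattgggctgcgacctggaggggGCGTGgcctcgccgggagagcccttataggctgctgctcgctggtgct
Slc16a3: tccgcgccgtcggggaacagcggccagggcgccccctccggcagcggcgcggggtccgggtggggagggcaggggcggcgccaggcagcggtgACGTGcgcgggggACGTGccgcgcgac
Bnip3: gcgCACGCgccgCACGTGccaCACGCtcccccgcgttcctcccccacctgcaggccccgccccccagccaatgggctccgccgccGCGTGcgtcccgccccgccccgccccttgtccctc
In the order given, they lie at chr2:11553930-11554049 (minus strand), chr2:11502093-11502212 (minus strand), chr4:119108625-119108744 (plus strand), chr6:125165774-125165893 (minus strand), chr7:46845659-46845778 (plus strand), chr7:46846962-46847081 (plus strand), chr10:59951838-59951957 (minus strand), chr11:120948947-120949066 (plus strand), chr7:138909507-138909626 (minus strand). The first Ldha start held 5 matches of the first motif, counted on both strands, but the bases after it were found in no annotated Ldha transcript. Those after the second Ldha start were found in one, and this start held 0 matches of the first motif and 1 of the variant. For Adm, Mif and Pgam1 the bases after the start were not found in a transcript either. Of the matched members, Mif, Gpi1 and Tpi1 held neither motif in their 250 bases.

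The first question was which cell classes show a hypoxic or glycolytic profile. A gene was called high in a class when, in both libraries, its level was at least 2-fold the median of the other classes, after adding 5 CPM to each. Only genes that averaged 50 CPM or more over both libraries in that class, on 30 UMIs or more, were counted. Of 265 pairs of a member and a class that passed this filter on low values, 37 were high (14.0%), against 23.0% of the pairs over all genes. 15 of the 32 members were high in at least 1 class. Of these, Ddit4, Ndufa4l2, Pdk1, Slc16a3 and Pfkfb4 passed the filter only in classes where they were high, so for them the filter and the call are not independent. 11 of the 32 members passed the filter in all 16 classes: Bhlhe40, Bnip3l, Higd1a, Mif, Gpi1, Aldoa, Tpi1, Gapdh, Pgk1, Pgam1 and Ldha, and 8 of these 11 were high in none. Adm, a vasodilator peptide, Ankrd37, an ankyrin repeat protein, Car9, a carbonic anhydrase of the cell surface, P4ha2, a collagen prolyl hydroxylase, and the phosphofructokinases Pfkl and Pfkm passed it in no class.

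Members that were high in no class still varied in level. Bnip3l, a mitophagy receptor, ranged from 85.8 CPM in proximal tubule to 237 CPM in monocyte-like cells of the control library, and from 47.2 CPM in dendritic cell to 189 CPM in monocyte-like cells of the haplodeficient library. Gpi1, glucose-6-phosphate isomerase, had its highest level in the thick ascending limb, at 244 and 218 CPM, and Kdm3a, a histone demethylase, was at most 78.8 CPM (control, neutrophil) and 47.2 CPM (haplodeficient, endothelial). Gapdh has many processed pseudogenes, as have other enzymes of the list, and how reads shared with such copies were counted was not given in the sources used here, so their levels are uncertain to that extent.

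The members below the filter had small maxima. Adm was highest in intercalated-like cells, at 29.6 and 29.7 CPM, and Ankrd37 in neutrophil-like cells, at 36.4 and 27.8 CPM. Car9, which is known as a sharp marker of HIF activity, was at most 8.36 CPM (control, pericyte) and 5.05 CPM (haplodeficient, dendritic cell). Pfkl, the liver-type phosphofructokinase, reached 53.5 and 45.8 CPM in the thick ascending limb, and Pfkm, the muscle type, 19.97 and 20.8 CPM in distal convoluted tubule and intercalated-like cells.

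**Figure D1:**
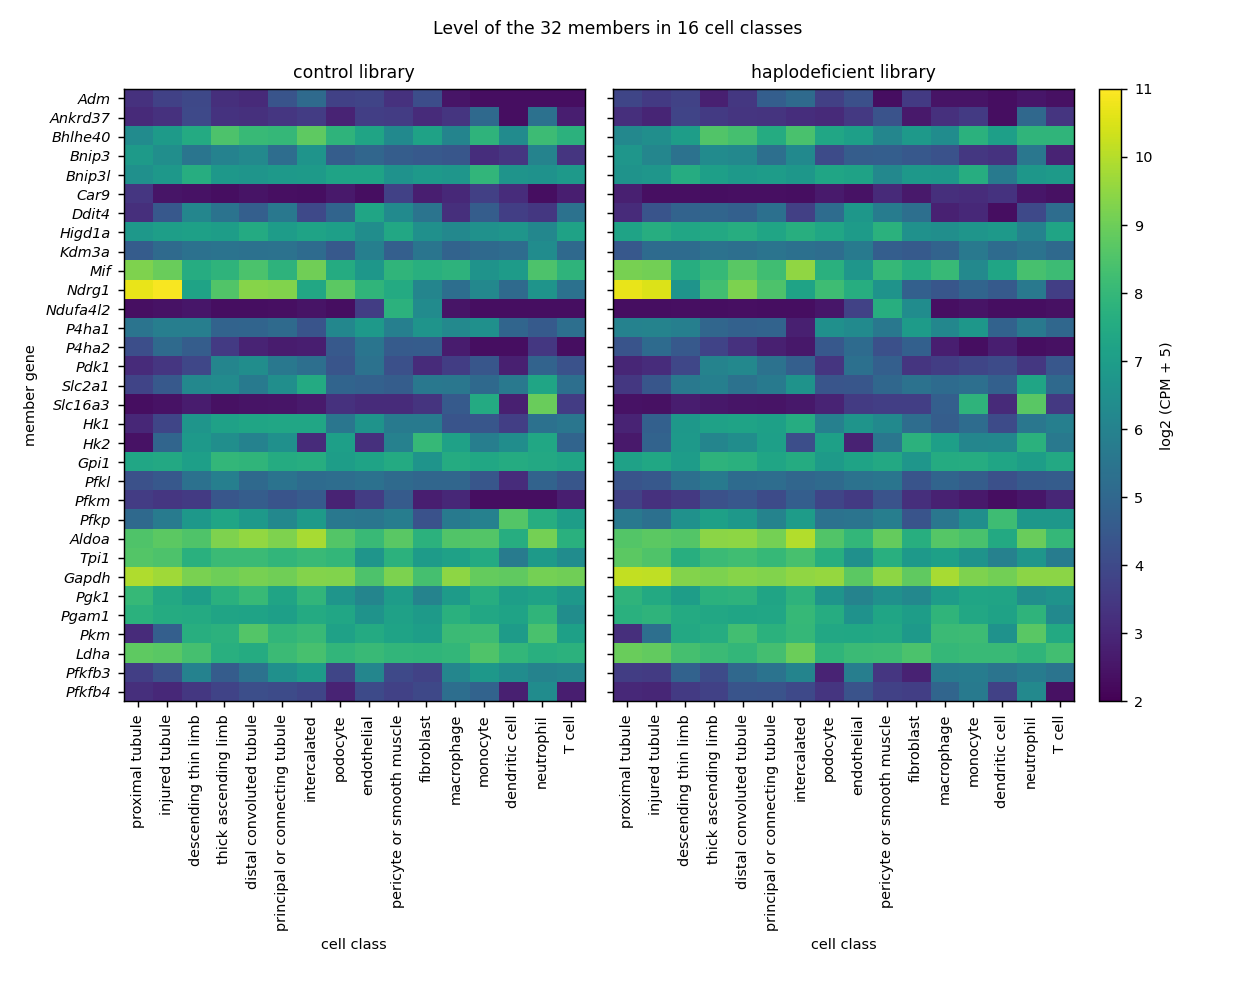
Level of the 32 members (rows) in 16 cell classes (columns) of the control library (left) and the haplodeficient library (right), as log2 of CPM + 5. Ndrg1 is brightest in proximal and injured tubule-like cells, Ndufa4l2 in pericyte-like cells and Slc16a3 in neutrophil-like cells of both libraries, and the order of classes had a median Spearman correlation of 0.90 between the libraries.

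Intercalated-like cells, the acid- and base-secreting cells of the collecting duct, had the highest summed level of the 13 glycolysis enzymes among the 16 classes in both libraries. It came to 3320 CPM (control) and 3805 CPM (haplodeficient), followed by distal convoluted tubule-like cells at 3141 and 3152 CPM. Endothelial-like cells, at 1654 and 1666 CPM, and fibroblast-like cells, at 1630 and 1778 CPM, had the lowest sums. Outside the 16 classes, an unnamed, shallow cluster led by AY036118 was higher in both libraries, at 3483 and 4611 CPM. One led by Ube2c was higher in the control library only, at 3643 and 2843 CPM. An unnamed cluster led by Slc26a4 (284 and 233 cells, against 171 and 104 in the intercalated class) met 11 intercalated markers, and also those of principal or connecting tubule cells. Its sum, 3051 and 3006 CPM, was below that of distal convoluted tubule-like cells. The first rank of intercalated-like cells thus holds with this cluster left out, and a rank with it included was not computed. In intercalated-like cells 6 of 18 members that passed the filter were high (all genes 18.4%). Aldoa, an aldolase, stood at 895 CPM (850.2 to 942) and 987 CPM (927 to 1050.2), the highest of all classes in both libraries. Slc2a1, the glucose transporter GLUT1, stood at 176 and 94.0 CPM, Hk1, a hexokinase, at 157 and 184 CPM, and Mif, a cytokine, at 524 and 716 CPM. Bhlhe40, a transcription repressor, had 432 and 333 CPM there, and Bnip3, a mitophagy receptor, 94.9 and 72.2 CPM. Bnip3, Mif and Aldoa were no longer high there with classes assigned cell by cell, Bnip3 with a UMI minimum for each library, and Bhlhe40 with doublets kept and with each library clustered alone.

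**Figure D2:**
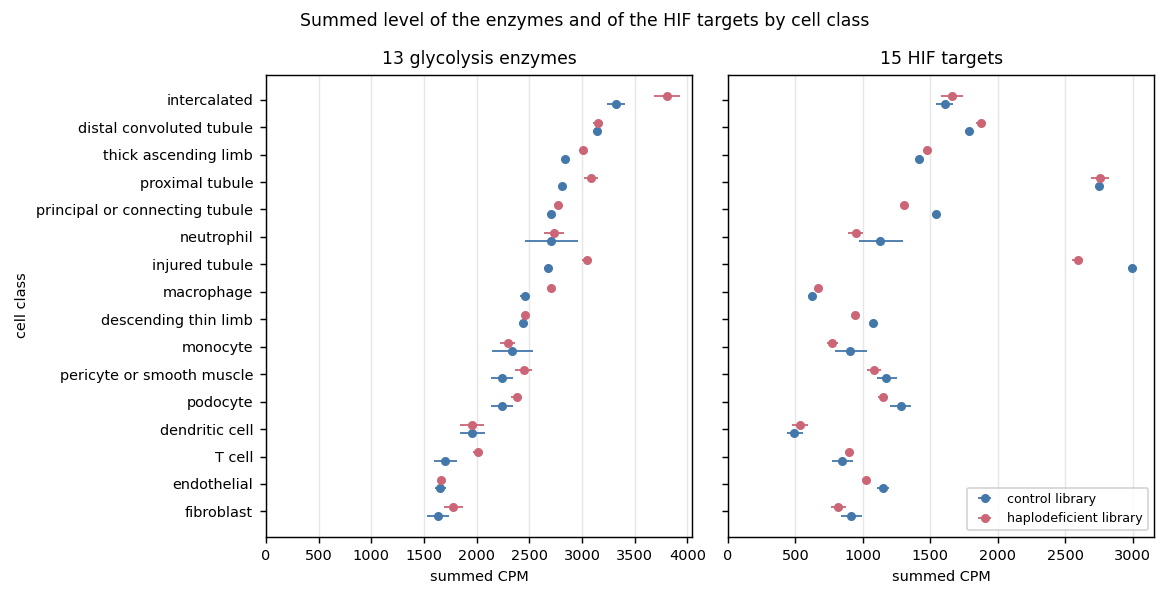
Summed level of the 13 glycolysis enzymes (left) and the 15 HIF targets (right) in 16 cell classes, in CPM, with points for each library and bars for the exact 95% Poisson interval. Intercalated-like cells lie furthest to the right on the left panel (3320 and 3805 CPM), and proximal and injured tubule-like cells on the right panel.

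The thick ascending limb and the distal convoluted tubule shared a set of high members. In thick ascending limb-like cells 5 of 19 were high (all genes 17.6%) and in distal convoluted tubule-like cells 4 of 18 (17.2%). Both had Bnip3, Ndrg1, Hk1 and Pdk1, and the thick ascending limb also Pfkp, the platelet-type phosphofructokinase, at 150.0 and 134 CPM. The Pfkp call ended under 5 of the other settings, as did the Bnip3 call in the thick ascending limb under 4, among them classes assigned cell by cell for both. Pdk1, which holds pyruvate out of the mitochondria by inhibiting pyruvate dehydrogenase, stood at 63.5 and 59.4 CPM in the thick ascending limb and at 80.4 and 68.8 CPM in the distal convoluted tubule. Its median over the 16 classes was 14.9 and 10.9 CPM. Principal or connecting tubule-like cells had 2 of 18 high (18.1%), Ndrg1 and Hk1. A UMI minimum set for each library ended both of these calls. It also ended the Ndrg1 and Hk1 calls in the thick ascending limb and the Bnip3 and Hk1 calls in the distal convoluted tubule. The Ndrg1 call in the thick ascending limb also ended with each library clustered alone. The Bnip3 call in the distal convoluted tubule also ended with classes assigned cell by cell. In descending thin limb-like cells 0 of 18 were (16.2%).

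Proximal tubule-like cells held high levels of the enzymes of the reversible steps but almost no hexokinase and little pyruvate kinase. Gapdh, glyceraldehyde-3-phosphate dehydrogenase, stood at 964 and 1155 CPM, and Tpi1, triosephosphate isomerase, at 378 and 420 CPM, the highest of the 16 classes in both libraries. Hk1 stood at 3.08 and 2.37 CPM, Hk2 at 0.481 and 1.18 CPM, and Pkm, the pyruvate kinase of most tissues, at 3.68 and 4.34 CPM, the lowest of the 16 classes for Hk1, Hk2 and Pkm in both libraries. Summed over hexokinases, phosphofructokinases and pyruvate kinases, the irreversible steps came to 69.9 and 88.7 CPM, against 343 to 812 CPM (control) and 345 to 839 CPM (haplodeficient) in the classes other than proximal and injured tubule. The genes of glucose synthesis ran the other way. All 6 genes of the fixed gluconeogenesis list were high in proximal tubule-like cells, among them Fbp1, fructose-1,6-bisphosphatase, at 1061 and 899 CPM, Pck1 at 935 and 488 CPM, and G6pc, glucose-6-phosphatase, at 321 and 318 CPM. The summed level of the 13 glycolysis enzymes there, 2811 and 3084 CPM, was made almost wholly of reversible steps, which glucose synthesis also uses.

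In proximal tubule-like cells 3 of the 13 members that passed the filter were high (all genes 30.6%) and in injured tubule-like cells 3 of 14 (20.9%), in both Bnip3, Mif and Ndrg1. All were HIF targets, of which 6 and 7 had passed. The Mif call ended in both classes with a UMI minimum set for each library, and the Bnip3 call in injured tubule-like cells did too. Both Mif and Bnip3 calls in injured tubule-like cells also ended with classes assigned cell by cell. The Mif call also ended at Leiden resolution 2 in injured tubule-like cells and with doublets kept in proximal tubule-like cells. Injured tubule-like cells were led by C3, Havcr1 and Vcam1. Ndrg1, a gene of cell differentiation and stress, stood at 1672 and 1678 CPM in proximal tubule-like cells and at 1929 and 1461 CPM in injured tubule-like cells, and made up most of the summed HIF target level there, which was 2752 and 2757 CPM and 2998 and 2592 CPM. Its next class was the distal convoluted tubule, at 658 and 600.0 CPM. Hk2 was higher in injured tubule-like cells than in proximal tubule-like cells, at 25.4 and 24.1 CPM, and so was Pkm, at 21.2 and 33.6 CPM. The gluconeogenesis sum of Pck1, G6pc, Fbp1 and Pcx was 2568 and 1896 CPM in proximal and 540.2 and 477 CPM in injured tubule-like cells. Across the 16 classes the sums of the HIF targets and of the glycolysis enzymes had a Spearman correlation of 0.66 (control) and 0.76 (haplodeficient), a description over classes that share a library, without a test.

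Lactate dehydrogenase split by cell lineage. Ldha, whose subunit favours lactate production, made up 9.09% (8.65 to 9.55) and 10.8% (10.3 to 11.4) of Ldha and Ldhb UMIs in distal convoluted tubule-like cells, and 12.7% and 13.6% in injured tubule-like cells. In endothelial-like cells it made up 77.5% (74.5 to 80.2) and 85.6% (83.9 to 87.2), and in fibroblast-like cells 83.5% and 92.7%. Pericyte or smooth muscle-like cells lay between, at 51.2% and 51.1%. Of the leukocyte classes, neutrophil-like cells had 75.0% and 87.03% and dendritic cell-like cells 92.5% and 86.5%. The level of Ldha itself varied little, from 181 to 435 CPM over the 16 control classes, while Ldhb reached 2833 and 2846 CPM in injured tubule-like cells and 45.8 and 27.4 CPM in fibroblast-like cells.

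In neutrophil-like cells 4 of 21 members were high (all genes 35.5%): Slc2a1, Slc16a3, Hk2 and Pfkfb4. Slc16a3, the lactate exporter MCT4, stood at 491 CPM (390 to 610) and 412 CPM (377 to 450) there, at 176 and 228 CPM in monocyte-like cells, and at 18.2 and 21.7 CPM in macrophage-like cells, the next class. With each cell thinned to 1000 UMIs, 28.1% (19.4 to 38.2) of 96 and 29.9% (26.2 to 33.8) of 572 neutrophil-like cells had a Slc16a3 UMI, against 0 of 2564 and 0 of 210 proximal tubule-like cells, which allows shares of up to 0.117% and 1.43%. Without thinning, the shares were 37.5% and 44.4% of neutrophil-like cells, at median depths of 1559 and 1775 UMIs, and 0.117% and 0.476% of proximal tubule-like cells, at 12204 and 8787 UMIs. Hk2, the inducible hexokinase, stood at 158 and 211 CPM in neutrophil-like cells, and Pfkfb4, a kinase that makes the activator of phosphofructokinase, at 78.8 and 70.7 CPM. Slc2a1 stood at 151 and 149.8 CPM. The Hk2 call in neutrophil-like cells ended with scaling by median ratios in place of CPM.

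In monocyte-like cells 2 of 17 members were high (all genes 32%), Slc16a3 and P4ha1. The P4ha1 call ended there with at most 25% mitochondrial UMIs, at Leiden resolution 2 and with classes assigned cell by cell. It also ended with scaling by median ratios in place of CPM and with mitochondrial UMIs left out of the sum. Dendritic cell-like cells, led by Xcr1, had 1 of 15 (27.4%), Pfkp, at 378 CPM (327 to 435) and 292 CPM (249.7 to 338), which was 98.98% and 95.6% of their phosphofructokinase UMIs. In macrophage-like cells 0 of 15 were high (25.6%) and in T cell-like cells 0 of 14 (26.7%).

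Macrophage-like cells were made of 2 clusters that differed in glycolysis genes. The clusters were formed without the members, and the comparison between them was chosen after the data were seen. One was led by the chemokines Ccl12, Ccl8 and Ccl7 (553 control and 700 haplodeficient cells), the other by Gpnmb, Fabp5 and Trem2, genes of lipid-handling macrophages (175 and 466 cells). The summed level of the glycolysis enzymes was 1494 CPM (1447 to 1542) and 1457 CPM (1418 to 1497) in the Ccl12-led cluster, and 3612 CPM (3532 to 3694) and 3425 CPM (3379 to 3472) in the Gpnmb-led cluster. The Gpnmb-led cluster was thus 2.42-fold (2.33 to 2.51) and 2.35-fold (2.28 to 2.42) higher. The class as a whole, at 2456 and 2704 CPM, lay between them. So did an unnamed cluster led by Retnla (153 and 221 cells), at 2277 and 2345 CPM. It scored best for macrophage markers but had leading genes of another class, and was left out of the comparison.

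For this comparison the filter was a mean of 50 CPM or more over both clusters and both libraries, on 30 UMIs or more. Of 15 members that passed it, 8 were at least 2-fold higher in the Gpnmb-led cluster in both libraries (all genes 4.79%) and 0 were lower (6.24%). They were Bhlhe40, Bnip3l, Mif, Aldoa, Gapdh, Pgk1, Pgam1 and Pkm. Of the enzymes that passed, Pgam1, phosphoglycerate mutase, differed most, with 87.5 CPM in the Ccl12-led and 348 CPM in the Gpnmb-led cluster of the control library, and 71.5 and 324 CPM in the haplodeficient library. Bhlhe40 differed as widely, with 23.6 and 107 CPM and 29.5 and 105 CPM, but it passed the filter only through its level in the Gpnmb-led cluster. Pkm stood at 121 and 462 CPM and at 103 and 372 CPM, and Aldoa at 163 and 617 CPM and at 162 and 522 CPM. Other members of the entry and control steps differed less or the other way. Hk2 stood at 148 CPM in the Ccl12-led and 124 CPM in the Gpnmb-led cluster of the control library, and at 133 and 126 CPM in the haplodeficient library. Pfkfb3, the main kinase that makes the activator of phosphofructokinase, was lower in the Gpnmb-led cluster, with 43.9 against 82.0 CPM and 36.1 against 63.4 CPM. Pfkp had 48.1 against 44.3 CPM and 49.1 against 29.8 CPM, and Pfkl, which did not pass the filter, was higher in the Gpnmb-led cluster, by 1.70-fold and 2.62-fold. The median depth was 4344 and 4706 UMIs in the Ccl12-led and 10272 and 11138 UMIs in the Gpnmb-led cluster, and the summed level of 10 genes of dividing cells was 68.3 and 106 CPM against 589 and 677 CPM. The part of depth and of cell division in the difference was not tested.

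**Figure D3:**
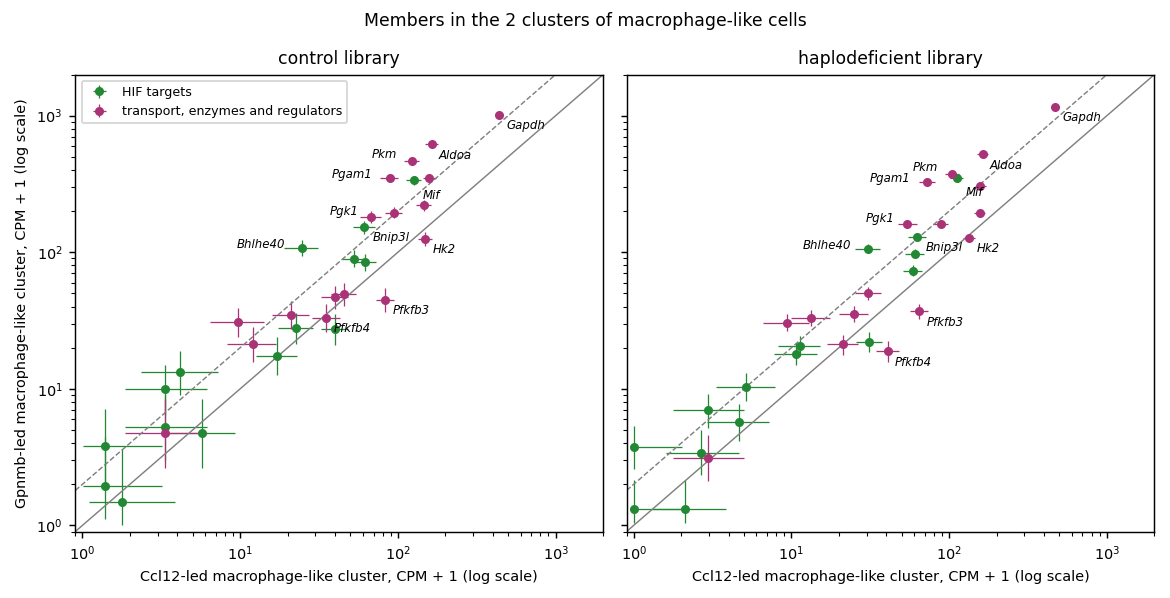
Each point is 1 of the 32 members, with its level in the Ccl12-led (horizontal) and the Gpnmb-led (vertical) macrophage-like cluster of the control (left) and haplodeficient (right) library, as CPM + 1 on log axes with exact 95% Poisson intervals. The solid line marks equal levels and the dashed line a 2-fold difference, and Aldoa, Gapdh, Pgam1 and Pkm lie above the dashed line, Hk2 and Pfkfb3 below the solid line.

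Mesenchymal cells were marked by Ndufa4l2, a HIF-induced relative of a respiratory chain subunit that lowers mitochondrial respiration. It stood at 214 CPM (184 to 247) and 194 CPM (172 to 218) in pericyte or smooth muscle-like cells and at 75.8 and 78.8 CPM in fibroblast-like cells, and at most at 7.41 and 8.80 CPM in the other 14 classes. Thinned to 1000 UMIs, 21.1% of 194 and 21.3% of 263 pericyte-like cells had a UMI of it (40.7% and 49.0% without thinning), against 0 of 96 and 0 of 572 neutrophil-like cells, which allows up to 3.12% and 0.524%. In pericyte or smooth muscle-like cells 2 of 17 members were high (all genes 22.2%), Ndufa4l2 and Ddit4. Ddit4 was no longer high there under 6 of the other settings: a UMI minimum for each library, at most 25% mitochondrial UMIs, doublets kept, Leiden resolution 2, each library clustered alone, and classes assigned cell by cell. The first of these also ended the Ndufa4l2 call. In fibroblast-like cells 3 of 15 were (22.9%): Ndufa4l2, Hk2, which had its highest level there at 259 and 214 CPM, and P4ha1, a collagen prolyl hydroxylase, at 96.9 and 118 CPM. The P4ha1 call in fibroblast-like cells ended with at most 25% mitochondrial UMIs and with mitochondrial UMIs left out of the sum. In podocyte-like cells, which also expressed Tagln and Tnc, 1 of 15 was high (17.8%), Ndrg1 at 425 and 287 CPM.

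Endothelial-like cells, in which the Cre is driven, had 1 of 18 members high (all genes 25.7%), Ddit4. Ddit4, also called Redd1, inhibits mTORC1 and is induced by hypoxia and glucocorticoids. It stood at 152 CPM (137 to 169) and 103 CPM (94.7 to 112), and its next class, pericyte or smooth muscle, at 74.0 and 49.8 CPM. Mif, Tpi1 and Pgk1 were at or below 0.5 of the median of the other classes there, with Pgk1, phosphoglycerate kinase, at 63.4 and 60.5 CPM. Hexokinase was almost only Hk1, with 92.6 and 96.8 CPM against 4.53 and 2.25 CPM for Hk2. Within the endothelium, descending vasa recta-like cells led by Aqp1 (92 and 159 cells) had 275 and 253 CPM of Pkm and 366 and 319 CPM of Hif1a, the HIF1 alpha subunit. Arterial-like cells led by Stmn2 (55 and 71 cells) had 136 and 92.8 CPM of Pkm, 53.0 and 85.1 CPM of Hif1a, and 1251 and 1067 CPM of Epas1, the HIF2 alpha subunit. The HIF target P4ha2 was higher in the arterial-like cells, at 84.8 and 87.01 CPM against 41.0 and 25.3 CPM in the vasa recta-like cells, and so was Bhlhe40, at 290.4 and 300 CPM against 87.9 and 70.1 CPM. A sub-cluster of 30 and 37 cells was led by the tubule genes Umod, Spp1 and Pkhd1 beside Erbb4. Its part in the class values was not tested.

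The second question was whether the members differed between the libraries. A gene was called when its level differed at least 2-fold, after adding 5 CPM to each level, with Poisson intervals that did not overlap, among genes that passed the filter. Of 218 pairs of a member and a compared class, 1 was called (0.459%), against 1.93% of 44078 pairs over all genes. By class, the share of all genes called was 2.31% in proximal tubule, 0.875% in injured tubule, 1.14% in descending thin limb, 1.44% in thick ascending limb-like cells and 1.45% in those of the distal convoluted tubule. It was 2.45% in principal or connecting tubule, 2.52% in intercalated, 0.932% in endothelial, 1.41% in pericyte or smooth muscle and 2.88% in fibroblast-like cells. For macrophage, neutrophil and T cell-like cells the shares were 0.835%, 4.84% and 2.47%.

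The call was Pfkfb3 in principal or connecting tubule-like cells, at 85.7 CPM (78.9 to 92.9) in control and 37.9 CPM (33.5 to 42.6) in haplodeficient cells, a log2 ratio of -1.08 after adding 5 CPM and a plain ratio of 0.442 (0.382 to 0.511). The class was made of an Aqp2-led cluster (215 and 19 cells) and a Spink8-led cluster (353 and 647 cells). Pfkfb3 stood at 108 and 78.6 CPM in the first and at 71.4 and 36.3 CPM in the second, and with the clusters given the same weight in both libraries the class was not called. Over all 13 compared classes Pfkfb3 was lower in the haplodeficient library in 13, with a median log2 ratio of -0.57. In intercalated-like cells it was 117 and 61.3 CPM, in descending thin limb-like cells 59.1 and 23.3 CPM, in macrophage-like cells 64.7 and 46.1 CPM and in endothelial-like cells 64.6 and 52.2 CPM, and in proximal tubule-like cells 7.61 and 7.51 CPM.

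Such shifts common to all classes were counted after the data were seen. Of 3442 genes with at least 30 UMIs in every compared class, 13.3% were higher in the haplodeficient library in all 13 classes and 2.12% lower in all 13. Among these genes were 16 members. Gapdh and Ldha were higher in all 13 classes, and no member was lower in all 13. These 2 of 16 were near the share of all genes, so the count does not set the members apart. Pfkfb3 had too few UMIs in some classes to be among these genes. Gapdh had a median log2 ratio of 0.24 and Ldha of 0.21, and with mitochondrial UMIs left out of the sum they were higher in 13 and 11 classes. Higd1a, a mitochondrial protein of hypoxic survival, was higher in 12 classes (median 0.32), for example 79.4 and 118 CPM in endothelial-like cells. Slc2a1 was lower in 12 (median -0.40), with intercalated-like cells at 176 and 94.0 CPM, and in neutrophil-like cells, where it was among the highest, it was 151 and 149.8 CPM. Ndrg1 was lower in 12 (median -0.55), with 1672 and 1678 CPM in proximal tubule-like cells, the class without a lower level. The share of all genes that lay higher or lower in 12 of the 13 classes was not counted. It is therefore not known whether the counts of Higd1a, Slc2a1 and Ndrg1 are unusual. For Ndrg1 the estimated share of free RNA differed with the library: in T cell-like cells, at 35.7 and 7.598 CPM, it was 89.3% and 79.4%, in macrophage-like cells 100% and 55.1%, and in principal or connecting tubule-like cells, at 629 and 356 CPM, 9.04% and 3.77%. The levels of the mitochondrial genes were lower in the haplodeficient library in all 13 classes, and leaving them out shifted the log2 ratios by -0.02 in endothelial-like to -0.20 in proximal tubule-like cells. With mitochondrial UMIs left out, Higd1a was higher in the haplodeficient library in 11 classes, Slc2a1 in 1, and Ndrg1 and Pfkfb3 in 0. Beyond leaving these UMIs out, the part of free RNA, depth and mitochondrial share in these shifts was not tested.

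**Figure D4:**
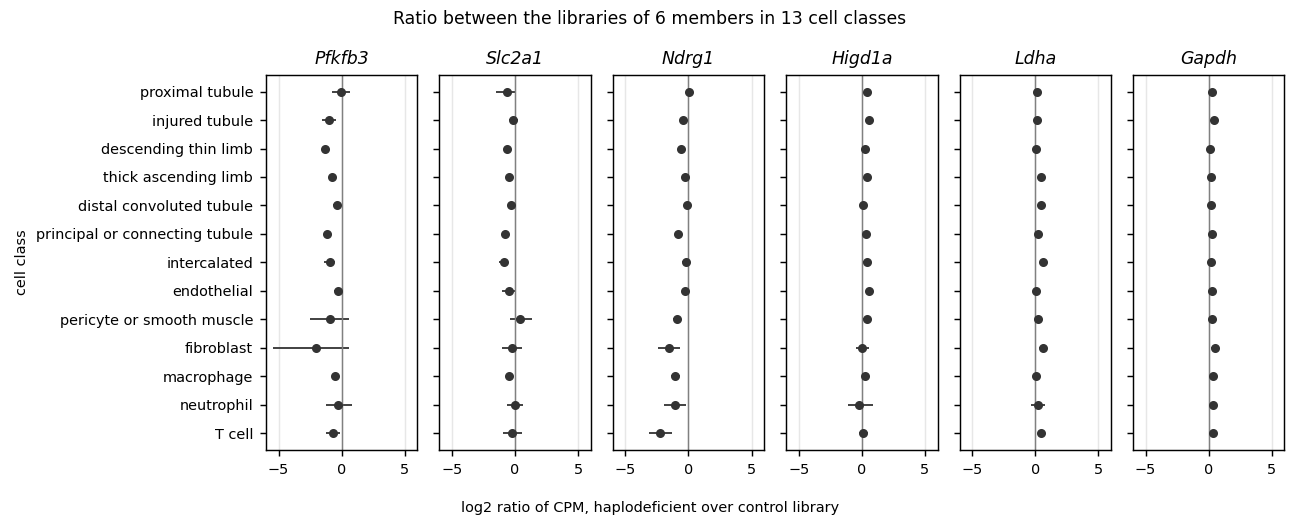
Log2 of the plain CPM ratio, haplodeficient over control library, of 6 members in 13 cell classes, with the exact 95% interval for counting error. All 13 points of Pfkfb3 lie left of 0 and all 13 of Gapdh and of Ldha right of it, and Pfkfb3 has its widest interval in fibroblast-like cells (5 and 2 UMIs).

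In endothelial-like cells no member was called. The 8 HIF targets that passed the filter had a median log2 ratio of -0.19, with 1 above and 7 below 0. The other 10 members that passed had one of -0.05, with 4 above and 6 below, and all genes tested one of -0.0063. Of the 18, the interval of the ratio lay below 1 for 6 (Bhlhe40, Ddit4, Ndrg1, P4ha1, Aldoa and Pfkfb3) and above 1 for 2 (Higd1a and Gapdh). The share of all genes with such an interval was not counted, so it is not known whether these counts are unusual. P4ha1 was lower, at 110 CPM (control) and 73.9 CPM (haplodeficient), a ratio of 0.675 (0.577 to 0.792), and so was Ddit4, a ratio of 0.677 (0.593 to 0.775). Higd1a was higher, a ratio of 1.49 (1.26 to 1.76), and Gapdh too, at 354 and 419 CPM, a ratio of 1.18 (1.09 to 1.28). The summed glycolysis enzymes had a ratio of 1.01 (0.970 to 1.04). The summed HIF targets had one of 0.888 (0.848 to 0.930), and ratios further below 1 were found in neutrophil (0.839), principal or connecting tubule (0.845), injured tubule (0.865) and descending thin limb-like cells (0.874). The genes of tissue dissociation stress summed to 22773 and 21268 CPM in the endothelial class. In proximal tubule-like cells they summed to 4169 and 9243 CPM, in T cell-like cells to 4179 and 6697 CPM, in thick ascending limb-like cells to 12025 and 16957 CPM and in pericyte or smooth muscle-like cells to 20532 and 26131 CPM. Their part in the differences between the libraries was not tested.

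**Figure D5:**
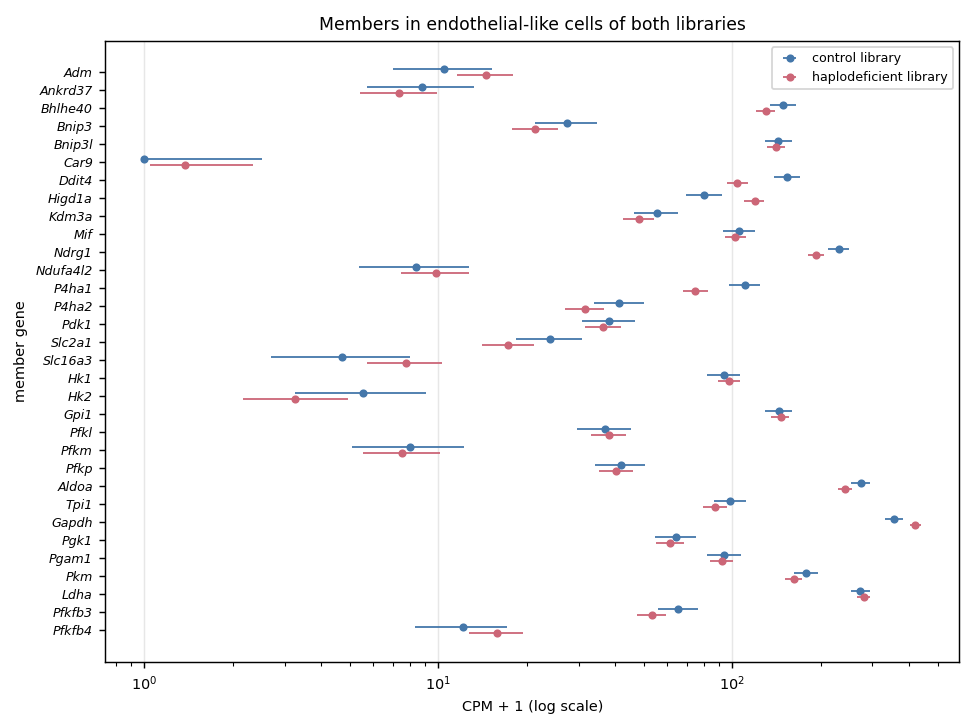
Level of the 32 members in endothelial-like cells of both libraries, as CPM + 1 on a log axis with exact 95% Poisson intervals. The intervals of Ddit4, Higd1a, Ndrg1, P4ha1 and Gapdh do not overlap between the libraries, and those of the other 27 members do. The share of all genes without overlap was not counted.

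Other genes of the pathways were read from fixed lists, of which 25 of 26 other HIF targets, 17 of 17 other glycolysis genes and 6 of 6 gluconeogenesis genes were in the files. Of 83 pairs of other HIF targets and classes, 3 were called higher and 3 lower in the haplodeficient library, and of 34 pairs of other glycolysis genes 0 higher and 5 lower, where 1.93% of all pairs were called (4.84% in neutrophil-like cells). In neutrophil-like cells Hilpda, a lipid droplet protein, stood at 48.5 and 262 CPM and Vegfa, the angiogenic growth factor, at 103 and 245 CPM, while Egln3 stood at 199.9 and 69.0 CPM and Slc2a3, the glucose transporter GLUT3, at 248 and 104 CPM. These control values rest on 8 to 41 UMIs in 103 cells. Cited2, a HIF-induced inhibitor of HIF, was 141 and 385 CPM in proximal tubule-like and 106 and 36.1 CPM in fibroblast-like cells, Slc16a7, a monocarboxylate transporter, 235 and 89.7 CPM in thick ascending limb-like cells, and Pgam2 198 and 95.5 CPM in distal convoluted tubule-like and 104 and 48.6 CPM in principal or connecting tubule-like cells. The Slc12a3- and Calb1-led cluster, which has Pgam2 among its leading genes, made up 32.4% of control and 3.96% of haplodeficient distal convoluted tubule-like cells, the Aqp2-led cluster 37.9% and 2.85% of principal or connecting tubule-like cells, and the Egf-led cluster 44.6% and 6.22% of thick ascending limb-like cells. For Pgam2 and Slc16a7 the part of this makeup was not tested.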

How the data were processed

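The data are droplet single-cell RNA counts of 1 control and 1 haplodeficient library. The authors deposited raw UMI counts per gene and barcode, made with Cell Ranger 4 per the file headers and on mm10 per the submitters' processing notes, and the annotation is not given in the sources used here. A barcode was kept from 500 UMIs and 200 genes upward if no more than 50% of its UMIs were mitochondrial, and Scrublet (scanpy 1.11.5, expected rate 0.8% per 1000 cells) removed 715 and 804 doublets. Cells of both libraries were clustered together on 2000 variable genes without the members and the other fixed lists (30 principal components, 15 neighbours, Leiden resolution 1, leidenalg 0.10.2, scikit-learn 1.9.0). This gave 40 clusters, named from 24 marker lists where at least 3 markers were found, and 6 stayed unnamed (14.6% and 13.6% of cells).

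UMIs were summed per class and library and scaled to CPM. Differences are log2 ratios after adding 5 CPM, for genes that averaged 50 CPM or more on 30 UMIs or more. Intervals are exact 95% Poisson, conditional binomial (ratios) and Clopper-Pearson (shares) intervals, and a count of 0 allows up to 3 counts. Free RNA was read from barcodes of 1 to 100 UMIs. The calculations were tested on simulated data. With 1 library per group no test was run.

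The text accounts for all 32 members and gives values for those high in a class or called between libraries, and for other listed genes that were called, of which some are not reported here. The members and lists were chosen with earlier results of these data known. The counts over all compared classes and the comparison of the macrophage clusters were chosen after seeing the data. Alternatives covered the cell filters, doublets, clustering, scaling, free RNA, pseudocount, the filter on low values and the motif. Clusters without a name were left out of the comparisons.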

Additional observations from a re-analysis of the deposited data

How the results depend on the processing

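The 37 pairs of a member and a class that were high became 17 with a UMI minimum set for each library, which left podocyte, fibroblast, monocyte, neutrophil and T cell-like cells without enough cells, and 14 of the 37 were kept. They were 27 with each library clustered on its own, 27 with classes assigned cell by cell, and 32 to 52 under the other settings. The 1 member called between the libraries became 2 with doublets kept, with each library clustered on its own and with classes assigned cell by cell, 5 with genes counted from a mean of 10 CPM, 6 with no filter on low values, and 0 with the same cluster weights in both libraries. The median log2 ratio of the members was -0.01 and became -0.065 with mitochondrial UMIs left out. In endothelial-like cells the median of the glycolysis genes was -0.05 and became -0.18 with each library clustered on its own. The ratio of the summed glycolysis enzymes there, 1.01, became 0.963 with a UMI minimum for each library, 1.06 with at most 25% mitochondrial UMIs, 1.07 with doublets kept, 1.07 at Leiden resolution 2 and 0.928 with each library clustered on its own, so it lay on both sides of 1. The share of members with a hypoxia response motif, 89.3%, was 57.1% for ACGTG alone. The cause of these changes was not tested beyond the classes and genes that a setting adds or drops. No value reversed its direction among those called. No paired analysis was possible because each group had 1 library. The neutrophil, dendritic cell, monocyte and fibroblast-like classes rest on few cells or shallow cells in at least 1 library, and counting error limits their values.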
